A study of Mus musculus with 2 samples.

Results

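The genes of the ER translocon and the signal-sequence receptor were examined in tissue cut from above and below the dorsal aorta of mouse embryos. The 10 members were chosen by symbol: Ssr1, Ssr2, Ssr3, Ssr4, Sec61a1, Sec61b, Sec61g, Sec62, Sec63 and Srprb. Each was matched through its Entrez gene number to 1 feature, so 10 of 24675 genes with a symbol are described. The set was proposed after the values of this same comparison were known, in which Ssr3 stood out, so the members' values are a description and were not tested. RNA came from C57BL/6 embryos at embryonic day 10.5, and the labels name no genetic change or treatment. A ventral piece under the aorta and a dorsal piece between notochord and aortic roof were laser-microdissected from the same embryos, and the labels do not say how many embryos contributed. The region is where the first hematopoietic stem cells form, and the series asks what the tissue under the vessel provides for them. There was 1 Affymetrix Mouse Gene 2.0 ST array per tissue, so the differences below come with no replicates, no error and no p-value.

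Proteins that are secreted or sit in membranes enter the endoplasmic reticulum (ER) as they are made. The signal recognition particle binds the signal sequence as it leaves the ribosome and docks at its receptor, whose beta subunit, encoded by Srprb, is a membrane-anchored GTPase. The chain then passes through the Sec61 channel, built from an alpha subunit that forms the pore and the small beta and gamma subunits. The signal-sequence receptor, also called the translocon-associated protein complex or TRAP, is a complex of an alpha, a beta, a gamma and a delta subunit, encoded by Ssr1, Ssr2, Ssr3 and Ssr4, that sits beside Sec61 and helps certain signal sequences to open it. Sec62 and Sec63 serve chains that open the channel poorly, and Sec63 brings the chaperone BiP to its lumenal side. Every cell type of the region uses this machinery, and cells that make much extracellular matrix use it heavily.

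Upstream sequence is shown for the members that passed 2-fold toward dorsal tissue, Ssr3 and Sec61g, and for Ssr4, which shares its upstream region with another measured gene. RefSeq promoter sequences of GRCm38.p6 were found for 8 of the 10 members, and those of Sec61a1 and Ssr2 are not shown. Capitals mark the CCAAT box (CCAAT) and the GC box (GGGCGG), each on either strand. The Ssr3 and Sec61g stretches are the 250 bases before the annotated start, on the minus strand at chr3:65392554-65392803 and chr11:16508485-16508734. The Ssr4 stretch is on the plus strand at chrX:73786898-73787022 and is the whole 125 bases between the start of Ssr4 and that of Idh3g, which is transcribed the other way. All are outside the annotated transcripts of the genes whose starts they adjoin.
Ssr3: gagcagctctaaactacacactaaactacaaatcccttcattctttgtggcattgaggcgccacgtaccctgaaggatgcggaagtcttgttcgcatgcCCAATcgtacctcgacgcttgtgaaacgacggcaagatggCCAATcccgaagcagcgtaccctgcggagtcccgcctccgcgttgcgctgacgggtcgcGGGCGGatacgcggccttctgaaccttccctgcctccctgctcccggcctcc
Sec61g: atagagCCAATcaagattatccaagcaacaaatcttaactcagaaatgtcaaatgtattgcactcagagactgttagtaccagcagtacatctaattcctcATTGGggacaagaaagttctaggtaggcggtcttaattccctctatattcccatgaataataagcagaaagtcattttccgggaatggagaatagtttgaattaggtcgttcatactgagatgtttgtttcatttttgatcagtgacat
Ssr4: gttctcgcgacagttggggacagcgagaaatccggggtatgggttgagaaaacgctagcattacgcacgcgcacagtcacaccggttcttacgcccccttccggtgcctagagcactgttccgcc

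The Ssr3 and Sec61g stretches each held 2 CCAAT matches. In the Ssr3 stretch these began 151 and 111 bases before the start, with 1 GC box beginning 52 bases before it. Over the 250 bases before the start, CCAAT was present in 3 of 8 member promoters (Ssr3, Sec61g and Sec63) and in 33.8% of 32851 promoters in the table. GGGCGG was present in 4 of 8 (Ssr3, Sec61b, Sec63 and Ssr1) against 32.7%, and the E box CACGTG in 2 of 8 (Sec62 and Ssr1) against 6.02%. No member promoter held the ER stress response element (CCAAT, then 9 bases of any kind, then CCACG, so that it contains a CCAAT box), the unfolded protein response element TGACGTGG, the cAMP response element TGACGTCA or the TATA box TATAAA. Among all promoters these were found in 0.113%, 0.563%, 1.55% and 12.4%. Both strands were searched. The G and C content was 59.6% in the Ssr3 stretch and 36.8% in that of Sec61g, against a median of 52.4% over all promoters. A match is a run of letters and not a measured binding site.

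Values are log2 expression after RMA, the normalization named in the submitters' processing notes, and compare 1 gene between the arrays, not 1 gene with another, since probes differ in brightness. As a mark of background, 1365 olfactory and vomeronasal receptor genes, thought to be silent here, had a 95th percentile of 3.92 and a 99th percentile of 5.48 over both arrays. A level under 3.92 is called background, and one between the marks is less certain. Of the 10 members, 9 were above 3.92 on both arrays, and 3 of them, Ssr2, Ssr3 and Sec61g, were above 5.48 on both. Sec61b was at background on both arrays. Genes were kept for counting when the higher of their values reached 3.10, the median over all genes, and 9 of 10 members passed. The median difference, ventral minus dorsal, of the 13982 kept genes was -0.12. Tissue markers went with the labels. Of 8 measured sclerotome and notochord markers 5 exceeded 2-fold toward dorsal tissue, beside 4.88% of all kept genes. Of 7 coelomic and visceral markers 4 did so toward ventral tissue, beside 9.44%. No marker of either list did so in the other direction. With the other array at background, the gaps were at least 1.92-fold for Emx2, 1.38 for Podxl, 1.34 for Uncx and 1.25 for Noto. Those of Shh, Tcf21 and Wt1 were at least 2.30, 5.52 and 6.46.

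Of the 9 kept members, Ssr3 and Sec61g passed 2-fold toward dorsal tissue and Ssr2 toward ventral tissue. The other 6 kept members, Ssr1, Ssr4, Sec61a1, Sec62, Sec63 and Srprb, lay within 2-fold. Among all kept genes 4.88% passed 2-fold toward dorsal tissue, 9.44% toward ventral tissue and 14.3% in either direction. The members were picked with these values known, so nothing is read from their share. The median difference of the 9 was -0.23, with 4 members above 0 and 5 below, beside -0.12 for all kept genes. After quantile normalization these medians were -0.47 and -0.082. After centring on the median of the kept genes the split became 2 and 2, because Srprb then passed 2-fold. In whole pieces of tissue, fewer cells that express a gene and less of its RNA per cell cannot be told apart.

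**Figure D1:**
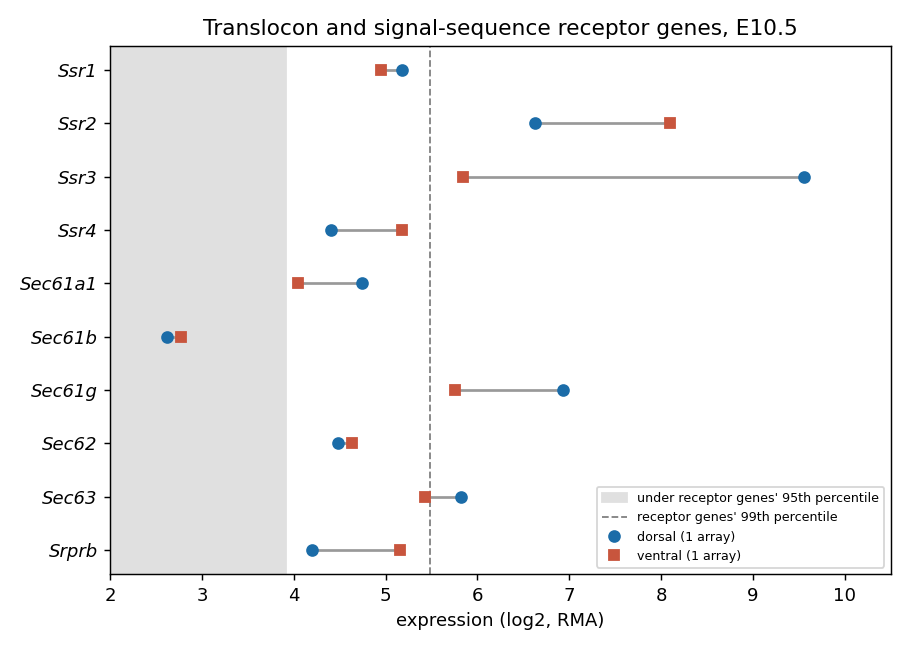
Expression of each member on the horizontal axis (log2, RMA) in the dorsal array (circles) and the ventral array (squares), 1 array each, with no error bars because there are no replicates. The grey area lies under 3.92, the receptor genes' 95th percentile, and the dashed line marks 5.48, their 99th. Ssr3 has the widest gap, with its dorsal value at 9.55 and its ventral value at 5.84, and both Sec61b values lie in the grey area.

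The subunits of the signal-sequence receptor did not differ in 1 direction. Ssr3, the gamma subunit, which spans the membrane several times, read 9.55 on the dorsal and 5.84 on the ventral array. It was therefore 13.1-fold higher in dorsal tissue, a log2 difference of -3.71, and both levels were above the receptor genes' 99th percentile. Counted from the most dorsal, this difference ranked 18 among the 13982 kept genes, and 0.565% of them were at least as far apart in either direction. Ssr2, the beta subunit, differed in the opposite direction, at 6.62 on the dorsal and 8.10 on the ventral array. This is 2.77-fold higher in ventral tissue, a log2 difference of 1.47, and 7.18% of kept genes were at least as far apart.

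Ssr4, the delta subunit, read 4.40 on the dorsal and 5.18 on the ventral array, 1.71-fold higher in ventral tissue. Ssr1, the alpha subunit, which carries a lumenal and a cytosolic domain around 1 membrane span, was at 5.18 on the dorsal and 4.95 on the ventral array, a difference of -0.23. Both of these lay between the background marks on both arrays. The log2 differences of the 4 subunits thus spanned 5.18, from -3.71 for Ssr3 to 1.47 for Ssr2. Among other lists of protein entry into the ER, kept genes spanned 4.60 for the 6 of the signal peptidase list. The lowest difference there was that of H13, the signal peptide peptidase, listed beside the complex. The span was 2.13 for the 12 of the oligosaccharyltransferase and 3.80 for the 9 of the ER membrane protein complex. It was 1.55 for the 7 of the signal recognition particle list, which includes the receptor gene Srpr. These spans rest on different numbers of genes and on 1 array per tissue. That of the 4 subunits is set by Ssr3, which stood out before the set was proposed, so nothing is read from its width.

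Idh3g, which encodes a subunit of the mitochondrial isocitrate dehydrogenase, starts 126 bases from Ssr4 on the other strand and is its partner across the 125 bases shown above. It read 5.97 on the dorsal and 6.86 on the ventral array, a log2 difference of 0.89, beside 0.78 for Ssr4. Both genes of the pair were thus higher in ventral tissue and within 2-fold. Of all 13982 kept genes 5778 lay above 0 and 11980 within 2-fold. A part of the shared bases in these values was not tested. None of the other 7 members with a promoter entry had a measured gene in that table starting within 1000 bases on the opposite strand, and Ssr2 and Sec61a1 were not checked.

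Of the Sec61 channel, the 2 kept subunits were higher in dorsal tissue, as were 8194 of all 13982 kept genes. Sec61g, the small gamma subunit that clamps the pore from the side, read 6.93 on the dorsal and 5.76 on the ventral array. This is 2.25-fold higher in dorsal tissue, and 10.9% of kept genes were at least as far apart. Sec61a1, the pore itself, was at 4.74 on the dorsal and 4.05 on the ventral array, 1.62-fold higher in dorsal tissue, with both levels between the background marks. Sec61b, the beta subunit, gave 2.62 and 2.78, under background on both arrays, so no difference could be seen for it at this signal. Sec61a2, the other alpha isoform, read 3.70 and 3.71, also background.

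Sec62 and Sec63 differed little between the tissues. Sec62 read 4.48 on the dorsal and 4.63 on the ventral array, a log2 difference of 0.14. Sec63, which carries a J domain facing the lumen, was at 5.82 and 5.43, a difference of -0.39, and 49.1% of kept genes were at least as far apart. Srprb was the member nearest to 2-fold among those within it, at 4.20 on the dorsal and 5.15 on the ventral array, 1.94-fold higher in ventral tissue. Its partner Srpr, the alpha subunit that binds the signal recognition particle, read 3.55 and 3.57, which is background on both arrays.

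**Figure D2:**
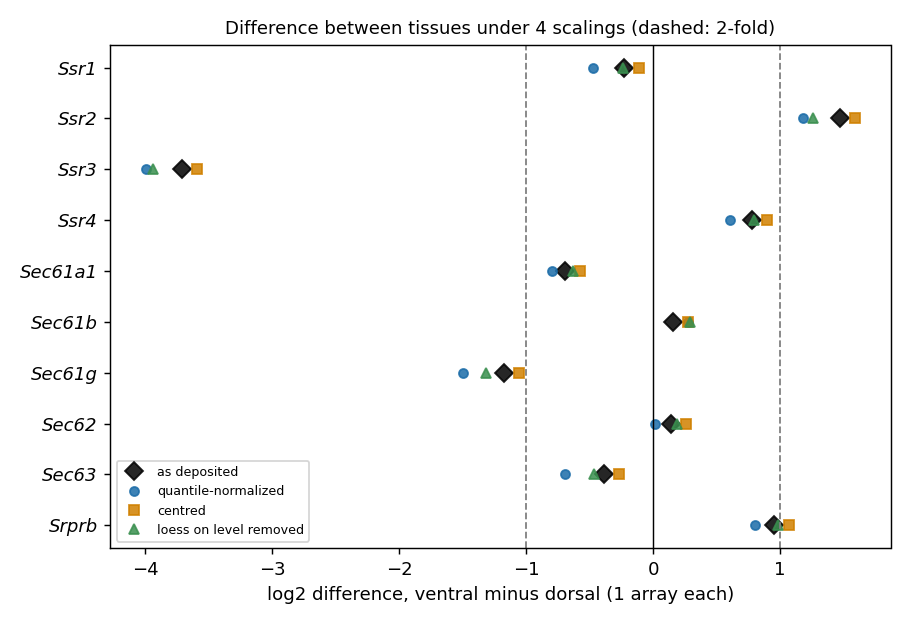
Log2 difference, ventral minus dorsal, of each member on the horizontal axis under 4 scalings of the same pair of arrays: as deposited (diamonds), after quantile normalization of the columns (circles), after centring on the median of kept genes (squares) and after removing a loess on level (triangles). Dashed lines mark 2-fold. Ssr3 lies between -3.99 and -3.59, and Srprb passes the 2-fold line only after centring, at 1.07.

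Other genes of protein entry into the ER were described by 8 lists chosen by function, with 92 genes measured, 84 of them kept. Of these, 16 passed 2-fold toward ventral and 4 toward dorsal tissue, beside 9.44% and 4.88% of all kept genes. The median difference of the 84 was 0.20, against -0.23 for the members. With the floor raised to the receptor genes' 95th percentile, 16 and 4 still passed, beside 1258 and 601 of all genes. That floor leaves out 17574 of the 24675 genes, which were at background on both arrays, and 21 of the 92. Kept genes at background thus lower the shares 9.44% and 4.88%, and no excess is read from the lists' counts. After quantile normalization 12 and 4 passed, beside 1158 and 796 of the 13982 kept genes, and the lists' median was 0.098. After centring 20 and 3 passed, beside 1527 and 527 of all kept genes, and the lists' median was 0.32. Counts use the measured values, so a gene counted past 2-fold can have a bound under 2. The lists hold genes that work with the members and are not independent samples. The shares of all kept genes, 9.44% and 4.88%, also stand beside the counts of each list below, with the same limit.

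The signal recognition particle, which brings ribosomes to the translocon, had 1 of 7 kept genes past 2-fold toward dorsal and 0 toward ventral tissue, with a median of -0.20. That median was -0.43 after quantile normalization, -0.45 after the loess on level and -0.081 after centring. Srp68, a protein of the particle's S domain, was 2.24-fold higher in dorsal tissue, with 6.35 against 5.18. Srp9 and Srp14, which together form the Alu domain that slows translation, did not share a direction: Srp9 was at 5.01 on the dorsal and 4.22 on the ventral array and Srp14 at 5.91 and 6.21. Srp72, the partner of Srp68, was at 6.83 on the dorsal and 7.22 on the ventral array, and Srp19 at 8.50 and 8.30. Srp54c, at 4.65 and 4.11, has near-identical copies whose RNA may reach the same probes, so its value is uncertain.

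Of the membrane proteins that work beside Sec61, 3 of 10 kept genes passed 2-fold toward ventral tissue and 0 toward dorsal tissue, 7 lay within 2-fold, and the median was 0.31. All 10 had differences above 0, beside 5778 of all 13982 kept genes. After quantile normalization 8 of 10 did, beside 6002 of all kept genes. The 10 include Sec61a2 and Ncln, which were at background on both arrays, so no difference could be seen for them. Tram1, the translocating chain-associated membrane protein that contacts signal sequences in the channel, was 7.43-fold higher in ventral tissue, with 8.29 against 5.39. Its paralog Tram2 reached 4.64 against a dorsal level at background, a gap of at least 1.64-fold. Ccdc47, part of the translocon for multi-span proteins, was 2.21-fold higher in ventral tissue, with 6.01 against 4.87, and fell within 2-fold after quantile normalization, at 0.88 on the log2 scale. Serp1, a small protein tied to Sec61 under stress, was 1.94-fold higher, at 5.42 against 4.46. Tmem147, another part of the multi-span translocon, was at 6.35 on the dorsal and 6.57 on the ventral array, and Tram1l1 at 5.40 and 5.69. Nomo1, at 3.85 and 4.01, and Serp2, at 3.76 and 4.10, were at background in dorsal tissue, and Ncln, at 3.11 and 3.15, on both arrays. Tmco1 was at 2.77 and 2.82 and was not kept.

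Signal peptidase, which cuts off the signal sequence after entry, had 2 of 6 kept genes of its list past 2-fold toward ventral and 0 toward dorsal tissue. Sec11a, a catalytic subunit, was 15.1-fold higher in ventral tissue, with 7.99 against 4.07. Spcs3, an accessory subunit, was at least 3.09-fold higher, at 5.54 against a dorsal value at background. Spcs1 was 1.93-fold higher in ventral tissue, with 8.72 against 7.77. H13, the signal peptide peptidase that clears the cut-off peptides, was at 4.38 in dorsal tissue and at background in ventral tissue, at 3.71.

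The oligosaccharyltransferase, which attaches sugar chains to the entering protein, had 1 of 12 kept genes past 2-fold toward ventral and 0 toward dorsal tissue, and the median was 0.06. After quantile normalization the counts were 1 and 1, Rpn1 then passing toward dorsal tissue at -1.06. Dad1 was 2.52-fold higher in ventral tissue, with 6.47 against 5.14. Stt3a, the catalytic subunit that works at the translocon, was 1.93-fold higher there, at 6.54 against 5.59. Rpn1, which encodes ribophorin I, was at 5.89 on the dorsal and 5.09 on the ventral array, and Ddost at 6.24 and 5.67.

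In the ER membrane protein complex, an insertase for membrane proteins, 2 of 9 kept genes passed 2-fold in each direction. Emc8 was 4.41-fold higher in ventral tissue, with 6.60 against 4.46, and Emc2 at least 2.25-fold. Emc6 was 3.16-fold higher in dorsal tissue, with 6.83 against 5.17, and Emc4 at least 2.90-fold. Beside these counts stand 9.44% of all kept genes toward ventral and 4.88% toward dorsal tissue, and nothing is read from the split. Of 6 kept genes for tail-anchored proteins, Get3, the targeting ATPase, was at least 2.89-fold and Ubl4a at least 1.65-fold above the dorsal value, and none passed 2-fold the other way. Sgta, a co-chaperone of that route, was at 4.18 in ventral tissue against a background level in dorsal tissue, and Get1, a subunit of the membrane receptor, at 4.42 in dorsal tissue against a background level in ventral tissue.

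Chaperones and folding enzymes inside the ER were higher in ventral tissue in 17 of 20 kept genes, beside 5778 of all 13982 kept genes. Of the 17, 1 was at background on both arrays. There were 5 past 2-fold in that direction and 0 in the other, beside 9.44% and 4.88% of all kept genes, and the median was 0.57. After quantile normalization 15 of 20 were higher in ventral tissue, beside 6002 of all 13982 kept genes. The 2 that then passed 2-fold were Dnajc3 and Dnajb9, beside 1158 of all kept genes toward ventral tissue. After the loess on level Dnajc3, Dnajb9 and Manf passed, beside 1371 of all kept genes, and 17 of 20 lay above 0, beside 6865. Dnajc3, a co-chaperone of BiP, was 3.17-fold higher in ventral tissue, with 6.38 against 4.71, and Dnajb9, another, 2.79-fold, at 6.57 against 5.09. Manf, a secreted ER stress factor, was 2.19-fold higher and P4hb, a protein disulfide isomerase, 2.16-fold higher, at 7.76 against 6.64. Hsp90b1, the ER form of Hsp90, passed 2-fold narrowly at 11.21 against 10.18. Hspa5, which encodes BiP itself, was at 8.46 on the dorsal and 8.73 on the ventral array.

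Of 14 kept genes of the unfolded protein response and ER-associated degradation, 1 passed 2-fold in each direction and the median was 0.06. The dorsal count was 0 after quantile normalization, centring or the loess on level. Selenos, a selenoprotein of the degradation machinery, read 8.57 in ventral tissue against background in dorsal tissue, a gap of at least 25.1-fold. Atf6, a stress sensor, was at 4.03 on the dorsal and 2.99 on the ventral array, at least 1.08-fold higher in dorsal tissue. Ern1, another sensor, was at 4.17 in dorsal tissue and at background in ventral tissue. Xbp1, the transcription factor activated through Ern1, was at 3.95 and 3.98, a difference of 0.02, and Atf4 was at 6.58 and 6.74. Os9, a lectin that delivers misfolded proteins for degradation, read 3.31 and 3.83, both background. Both arrays were under background for 9 of the 19 measured genes of this list.

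**Figure D3:**
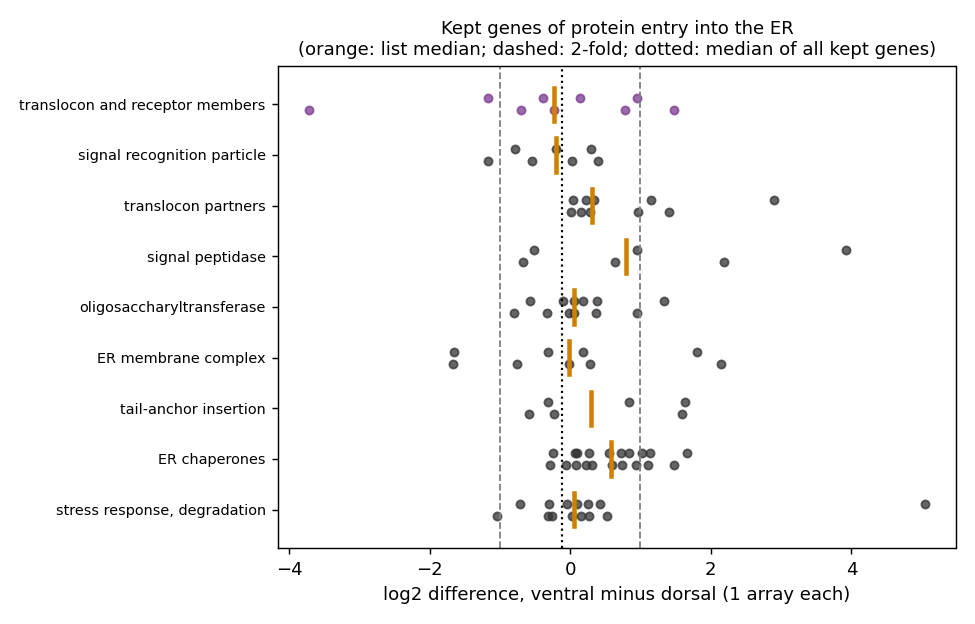
Log2 difference, ventral minus dorsal, on the horizontal axis for each kept gene (points) of the 9 kept members and the 8 lists of related genes, 1 array per tissue. Orange bars mark each list's median, dashed lines 2-fold and the dotted line the median of all kept genes, -0.12. Members lie on both sides with Ssr3 at -3.71. Above 0 lie 10 of 10 translocon partners and 17 of 20 chaperones, beside 5778 of all 13982 kept genes. After quantile normalization these become 8 of 10 and 15 of 20, beside 6002 of all kept genes. Genes at background on both arrays are included.

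Markers of other cell types were set beside these values. Of 5 kept endothelial markers 3 passed 2-fold toward ventral tissue, beside 9.44% of all kept genes. Among them, Kdr and Emcn had dorsal levels at background. The mean over the 6 measured was 3.56 in dorsal and 4.58 in ventral tissue. The coelomic and visceral list had means of 3.35 and 4.98, and the sclerotome and notochord list 4.51 and 3.47. Among 5 kept erythroid markers, Klf1 passed 2-fold toward dorsal tissue, at 5.35 on the dorsal and 4.25 on the ventral array. The other 4 lay within 2-fold. Alas2 differed by 0.71, with its dorsal level at background. Embryonic globin genes differed less, by -0.30 for Hba-x, -0.01 for Hbb-y and 0.05 for Hbb-bh1. The erythroid list had means of 8.87 in dorsal and 8.74 in ventral tissue. Neural markers had means of 4.48 and 4.78, with Nefm higher in ventral and Tubb3 in dorsal tissue. Of 6 liver and gut markers 5 were at background on both arrays, the other being Ttr, at 6.89 on the dorsal and 4.32 on the ventral array. Of 5 macrophage markers 4 were at background on both arrays. The other, Cx3cr1, was at 6.07 on the dorsal and 5.62 on the ventral array. The part of these cell types in the values of the members was not tested.

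The 5 protein-coding genes whose pair of values lay nearest to that of Ssr3, by straight-line distance over the 2 arrays on the log2 scale, were Zfp808, Rap1b, Aif1l, Fcf1 and Id3. Zfp808, a zinc finger gene, was nearest at a distance of 0.33, with 9.48 in dorsal and 6.16 in ventral tissue. Rap1b, a small GTPase, had 9.08 and 5.85, and Id3, an inhibitor of basic helix-loop-helix factors, 8.87 and 5.95. With 2 arrays such likeness describes where points fall and carries no further information.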

How the data were processed

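Laser-microdissected dorsal and ventral aortic tissue of embryonic day 10.5 was measured on 1 array each. Per the labels' protocols, 200 to 1000 pg of total RNA was amplified by an isothermal method, in which transcripts can be lost or over-represented at random. The deposited file holds log2 values made by the authors with RMA in Affymetrix Expression Console, per the submitters' processing notes. RMA as a method corrects background, aligns the distributions of arrays and combines probes into 1 value. The 2 deposited columns were nevertheless not identical in distribution. The median over all genes was 3.15 for dorsal and 3.02 for ventral tissue, and that of the receptor genes 2.40 and 2.28. Kept genes past 2-fold numbered 1320 toward ventral and 682 toward dorsal tissue as deposited, and 1158 and 796 after quantile normalization. Which arrays RMA normalized as 1 batch, the software versions and the probe annotation were not given in the sources used here. No detection calls were used.

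The platform annotation gave 1 symbol for 24675 of 25429 features, several for 0 and none for 754, which were left out. Differences are ventral minus dorsal on the log2 scale. With 1 array per tissue no test was made. Calls are by size, 2-fold. A fold whose lower level was under 3.92 is a bound, the higher level against 3.92. The members, the lists and the background mark were chosen with earlier results of these data known. Named genes are the 10 members, the signal recognition particle and translocon partner genes, up to 4 genes per other list with the greatest differences, the nearest genes and opposite-strand neighbours; Hsp90b1, Hspa5, Xbp1, Atf4 and the named cell type markers were added after their values were seen. Genes in the lists were matched by symbol or synonym; Srp54a, Srp54b and T, among others, had no match. Scaling, floor and fold threshold were varied. The 2-fold call on the plain difference, after quantile normalization and after the loess was tested on simulated data, and the other steps were not. Software was numpy 2.4.6 and pandas 2.3.3 under Python 3.11.15, with statsmodels 0.14.6 (loess span 0.3) and matplotlib 3.10.9.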

Additional observations from a re-analysis of the deposited data

How the results depend on the processing

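No paired analysis was possible because each tissue has 1 array, although both carry replicate number 4, and for the same reason no array could be left out. Under quantile normalization, centring and the loess on level, the 10 members gave 30 values, of which 30 kept their direction and 29 their side of 2-fold, the exception being Srprb after centring. The count of members higher in ventral tissue was 2 after centring, 3 at a 1.5-fold and 0 at a 3-fold threshold, and that higher in dorsal tissue was 1 at 3-fold. The members' median difference was -0.47 after quantile normalization, -0.11 after centring, -0.24 after the loess, -0.042 with no floor and -0.32 as a mean. The counts over the 84 kept genes of the related lists were 26 in ventral and 10 in dorsal tissue at 1.5-fold. Among all 13982 kept genes they were 2286 and 2099 at that threshold. At 3-fold the lists had 9 and 2, beside 626 and 228 among all kept genes. Signal over background limits Sec61b, Srpr and Sec61a2, which were at background on both arrays.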
